A study of Mus musculus with 4 samples.

Results

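The bone matrix and osteoblast genes were 10 genes chosen by name from the 55450 genes of the count matrix: Ibsp, Spp1, Bglap, Bglap2, Dmp1, Mepe, Phex, Alpl, Ifitm5 and Tmem119. All 10 were found by gene symbol, 1 row each, and they were chosen with earlier results of these libraries known, so their values are given as a description. The cells were articular chondrocytes of the femoral head, taken at an age of 3 weeks, released with collagenase at 3.5 mg/ml and grown in DMEM with 10% serum, and their mRNA was sequenced from the 3′ end. There was 1 library each from wild type, from Cart-miR-23clus KO, from miR-26a KO and from miR-26a KO cells into which a miR-26a mimic had been transfected. The first 3 libraries were labelled as strain C57BL/6, and the mimic library as C57BL6/J. Cart-miR-23clus KO carried Col2a1-cre and flox/flox alleles of the miR-23a/b clusters, so the deletion was driven by a promoter of cartilage cells. The miR-26a KO mice were miR-26a -/-, and the labels do not say whether their untransfected library received the control siRNA that the protocol names. The genotype of the wild-type library is not certain, since the methods of the study speak of Control mice that carry the floxed clusters. With 1 library per condition there was no replicate check, no p-value was computed, and each ratio compares a pair of libraries and not the conditions.

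Bone matrix is made by osteoblasts, which lay down type I collagen with non-collagenous proteins and then mineralise it. Ibsp (bone sialoprotein), Spp1 (osteopontin), Dmp1 and Mepe are acidic phosphoproteins of 1 gene cluster that bind mineral and cell surface integrins. Bglap and Bglap2 encode osteocalcin, Alpl is the alkaline phosphatase that removes the mineralisation inhibitor pyrophosphate, and Phex is an endopeptidase of osteoblasts and osteocytes. Ifitm5 is a membrane protein of mineralising osteoblasts, and Tmem119 is a membrane protein that promotes osteoblast differentiation. Late hypertrophic chondrocytes also make several of these proteins, and osteopontin is made by macrophages and osteoclasts too.

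The microRNAs deleted or added in these cells are shown because they define the libraries, in RefSeq's mature sequences on GRCm38.p6, 5′ to 3′, with the seed (bases 2 to 8) in capitals. miR-27a-3p and miR-27b-3p share a seed, and miR-24-3p is made from both clusters, on chromosomes 8 and 13. The sense strand of the transfected mimic is the miR-26a-5p sequence. miR-23b-3p is named only.
miR-23a-3p: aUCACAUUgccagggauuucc
miR-27a-3p: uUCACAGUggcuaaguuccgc
miR-27b-3p: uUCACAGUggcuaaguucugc
miR-24-3p: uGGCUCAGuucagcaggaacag
miR-26a-5p: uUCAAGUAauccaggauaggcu

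The match to a seed was sought as 7 letters in the annotated 3′ UTRs of 9784 genes and of the 10 bone genes. The letters AATGTGA of miR-23 stood in 16.1% of the 9784 genes, ACTGTGA of miR-27 in 16.5%, CTGAGCC of miR-24 in 17.6% and TACTTGA of miR-26a in 11.1%. None of the 10 genes held the letters of miR-23, miR-27 or miR-26a. Those of miR-24 were in 2 of them, Phex and Tmem119, and are shown in capitals within the UTR of Tmem119, at base 1020 of its 1167 bases. Tmem119 is shown as the gene with the lowest ratio in Cart-miR-23clus KO. Such a match is a description of letters and not of a bound site.
Tmem119 UTR: ggtctggcagcCTGAGCCcacacaac

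The promoters of Ibsp, Spp1 and Bglap are shown because Ibsp and Spp1 lie in the same gene cluster with ratios on opposite sides of 1 in Cart-miR-23clus KO, while Bglap, on another chromosome, had a ratio near that of Ibsp. Each window runs from 250 bases before to 50 bases after a RefSeq start on GRCm38.p6, at chr5:104299037-104299336 (+ strand) for Ibsp, chr5:104434861-104435160 (+ strand) for Spp1 and chr3:88384417-88384716 (- strand) for Bglap. Capitals mark ACCACA, the core that RUNX factors such as Runx2 bind, which was sought on both strands (TGTGGT on the other).
Ibsp promoter: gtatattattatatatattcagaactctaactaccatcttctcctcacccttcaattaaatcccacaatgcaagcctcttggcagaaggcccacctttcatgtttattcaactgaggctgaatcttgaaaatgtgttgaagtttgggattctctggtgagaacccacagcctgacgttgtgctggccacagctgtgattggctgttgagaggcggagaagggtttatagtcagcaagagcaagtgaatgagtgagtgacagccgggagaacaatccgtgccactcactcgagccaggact
Spp1 promoter: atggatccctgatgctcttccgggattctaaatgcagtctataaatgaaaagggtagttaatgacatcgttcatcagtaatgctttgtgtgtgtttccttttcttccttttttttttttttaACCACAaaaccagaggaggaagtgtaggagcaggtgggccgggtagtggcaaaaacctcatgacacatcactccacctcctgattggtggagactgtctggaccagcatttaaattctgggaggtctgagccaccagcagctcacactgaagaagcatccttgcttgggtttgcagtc
Bglap promoter: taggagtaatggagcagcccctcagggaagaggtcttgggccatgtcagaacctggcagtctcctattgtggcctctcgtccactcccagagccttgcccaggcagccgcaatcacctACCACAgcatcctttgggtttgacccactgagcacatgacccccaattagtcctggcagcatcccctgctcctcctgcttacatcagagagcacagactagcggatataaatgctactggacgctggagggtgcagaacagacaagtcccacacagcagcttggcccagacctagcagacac

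The core stood 128 bases before the start of Spp1 and 132 bases before that of Bglap, and was not in the Ibsp window. RefSeq gave a promoter for 8 of the 10 genes, and 4 of these 8 had the core: Spp1, Bglap, Dmp1 and Mepe. RefSeq lists 2 promoters each for Spp1, Dmp1 and Alpl, and the core was in 1 of the 2 for Spp1 and Dmp1 and in neither for Alpl. Counted by promoter, 4 of 11 windows of these genes had it, beside 16.8% of 32851 promoters of the same length. In Cart-miR-23clus KO, Bglap, with the core, was lower than wild type and Spp1, also with it, was higher. Ibsp, Alpl and Ifitm5 were lower and had no core in their windows. Dmp1 and Mepe, with the core, were hardly detected in any library. The part of the core in these values was not tested.

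Reads on genes numbered 1505805 for wild type, 1336496 for Cart-miR-23clus KO, 1369924 for miR-26a KO and 1449967 for the mimic library, the last recovered from its TPM values. A count of 0 therefore allows up to 3 reads, or 1.99 to 2.24 RPM (reads scaled to a fixed library total), for counting error only. All of 16 cartilage genes had reads in every library, which does not tell what share of the cells were chondrocytes. Lists of 4 values keep the order of these libraries throughout: wild type first, Cart-miR-23clus KO next, then miR-26a KO, and last the mimic library. Col2a1, the cartilage collagen, was at 7062, 5452, 5565 and 5664 TPM and Acan, aggrecan, at 661, 592, 472 and 489 TPM. Col1a1 and Col1a2, the genes of type I collagen, were at 6328 and 21110 TPM in wild type. Of the 10 bone genes, 6 had reads in all 4 libraries, Ifitm5 in 3, Dmp1 in 2, Phex in 1 and Mepe in 0. Ratios are ratios of TPM, followed in parentheses by their 95% counting intervals.

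Ibsp supplied most of the group's reads in every library but Cart-miR-23clus KO. It had 10938, 1653, 5837 and 6393 reads. Per length these were 5063, 842, 2967 and 3036 TPM. In wild type Ibsp was thus among the most abundant transcripts, at rank 20 of 15173 genes with TPM above 0, and its rank was 167 in Cart-miR-23clus KO. Relative to wild type, Cart-miR-23clus KO was at a TPM ratio of 0.166 (95% counting interval 0.158 to 0.175), or 6.01-fold lower. Of 9573 genes with at least 20 reads in the 2 libraries together, 36 had a smaller ratio. The ratio of miR-26a KO to wild type was 0.586 (0.568 to 0.605). The mimic library and miR-26a KO, neighbours in the order of levels, did not differ beyond counting error, with a ratio of 1.02 (0.988 to 1.06).

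Spp1, from the same chromosomal cluster, stood apart from Ibsp. It had 1140, 2160, 906 and 1165 reads, and the levels were 773, 1613, 675 and 811 TPM. Cart-miR-23clus KO was the highest of the 4 libraries for Spp1, where it was the lowest for Ibsp. The ratio to wild type was 2.09 (1.94 to 2.24) in Cart-miR-23clus KO and 0.873 (0.799 to 0.953) in miR-26a KO. The mimic library was at 1.20 (1.10 to 1.31) of miR-26a KO and at 1.05 (0.966 to 1.14) of wild type. In wild type 9.59 reads of Ibsp were counted for each read of Spp1 (9.03 to 10.2), against 0.765 (0.717 to 0.816) in Cart-miR-23clus KO. This quotient was 6.44 for miR-26a KO and 5.49 for the mimic library. Per length, in TPM, it was 6.55, 0.522, 4.40 and 3.74. As both genes are read from 1 library, the quotient does not depend on how libraries were scaled.

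**Figure D1:**
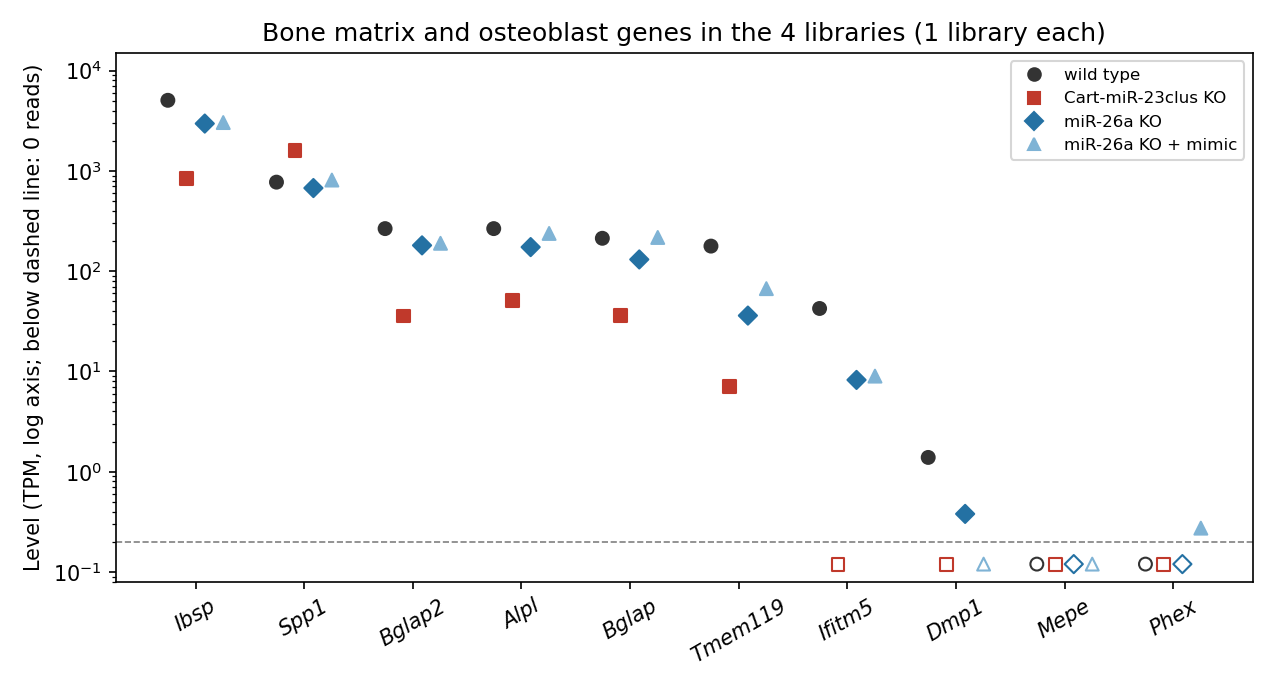
Level of each of the 10 genes in TPM (vertical, log axis) in the 4 libraries, with 1 point per library and open points under the dashed line for 0 reads. Ibsp lay at 5063 TPM for wild type and 842 for Cart-miR-23clus KO, whereas Spp1 lay at 773 and 1613.

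The cluster spans 270.3 kb of chromosome 5 (GRCm38, 104170712 to 104441050) and holds Dspp, Dmp1, Ibsp, Mepe and Spp1 in this order on the + strand. Ibsp lies at 104299171 to 104311469 and Spp1 at 104435118 to 104441050. Of the 5 genes, Dspp and Mepe had 0 reads in all 4 libraries. Dmp1, a matrix phosphoprotein of osteocytes and odontoblasts, had 4, 0, 1 and 0 reads. The reads of the cluster thus came almost wholly from Ibsp and Spp1. With its 0 held at 3 reads the ratio of Dmp1 was 0.826 in Cart-miR-23clus KO, with an interval from 0 to 1.67, and it was 0.275 in miR-26a KO with an interval from 0.00558 to 2.77. A difference in Dmp1 was not detectable at this depth.

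Osteocalcin was lower in Cart-miR-23clus KO from both of its genes. Bglap had 98, 15, 55 and 97 reads and Bglap2 131, 16, 81 and 91 reads. Their ratios to wild type were 0.169 (0.0909 to 0.292) and 0.134 (0.0747 to 0.227) in Cart-miR-23clus KO, and 0.616 (0.435 to 0.866) and 0.679 (0.508 to 0.903) in miR-26a KO. Bglap (88383501 to 88384464) and Bglap2 (88377736 to 88378699) lie within 15.8 kb of chromosome 3 with Bglap3, which had 0 reads in all 4 libraries. The Bglap and Bglap2 transcripts were 98.6% identical over 440 bases, with 6 differing bases and a shared run of 241, so the split of reads between them is uncertain. Taken as 1 gene they had 229, 31, 136 and 188 reads, and ratios to wild type of 0.149 (0.0990 to 0.217) in Cart-miR-23clus KO and 0.652 (0.524 to 0.810) in miR-26a KO. The mimic library was at 1.29 of miR-26a KO (1.03 to 1.62) for the pair, at 1.65 (1.17 to 2.34) for Bglap and at 1.05 (0.769 to 1.43) for Bglap2. At the level of the pair the mimic library could not be told from wild type by counting error, at 0.842 (0.691 to 1.03).

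Alpl (chromosome 4, 137741733 to 137796384), the phosphatase of the group, had 701, 122, 418 and 612 reads, or 266, 51.0, 174 and 238 TPM. Wild type had the most reads, and Cart-miR-23clus KO was the lowest. The ratio to wild type was 0.192 (0.157 to 0.233) in Cart-miR-23clus KO and 0.655 (0.579 to 0.740) in miR-26a KO. The mimic library was higher than miR-26a KO beyond counting error, at 1.37 (1.21 to 1.55). Alpl stayed between 5.26% and 7.85% of Ibsp on the TPM scale in all 4 libraries, while Alpl was 5.22-fold and Ibsp 6.01-fold lower in Cart-miR-23clus KO.

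The 2 small membrane proteins had the lowest ratios in Cart-miR-23clus KO. Tmem119 (chromosome 5, 113793729 to 113800516) had 417, 15, 77 and 153 reads. Its level was 178, 7.05, 36.1 and 67.0 TPM. Wild type was the highest library, and Cart-miR-23clus KO was 25.2-fold lower, at 0.0396 (0.0220 to 0.0661), a ratio below which only 4 of the 9573 genes lay. In miR-26a KO the ratio was 0.203 (0.157 to 0.259), lower than for Ibsp, osteocalcin or Alpl in that library. The mimic library was at 1.86 (1.40 to 2.47) of miR-26a KO and at 0.376 (0.311 to 0.454) of wild type, between the knockout and wild type.

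Ifitm5 (chromosome 7, 140948958 to 140950291) had 34, 0, 6 and 7 reads, so none at all were counted in Cart-miR-23clus KO. With the 0 held at 3 reads, Cart-miR-23clus KO was at least 10.3-fold lower than wild type, and the counting interval of the ratio, which takes in the error of the wild-type reads, ran from 0 to 0.126. The ratio of miR-26a KO to wild type was 0.194 (0.0665 to 0.467), and that of the mimic library to miR-26a KO was 1.09 (0.314 to 3.93). The knockout and mimic libraries thus could not be told apart for Ifitm5 at this depth. Of the osteocyte genes in the group, Mepe had 0 reads in each library and Phex had 1 read, in the mimic library. Of 6 osteocyte markers in all, Sost and Fgf23 were also at 0 in each library, and Pdpn, which many other cells express, was at 68.5, 125, 105 and 94.6 TPM.

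Counted over the group, 8 of the 10 genes had more than 3 reads in wild type or Cart-miR-23clus KO and so a ratio, and Mepe and Phex had none. In Cart-miR-23clus KO 6 of these 8 were below 0.5 of wild type, where 7.95% of all 12448 genes with a ratio were. Only Spp1 was above 2, where 8.83% of all genes were. The median log2 ratio was -2.58 for the 8 and -0.01 for all genes. The group was named with this comparison known, so nothing is read from these shares. In miR-26a KO 3 of 8 were below 0.5 of wild type (Dmp1, Ifitm5 and Tmem119), beside 7.28% of 12367 genes, and 0 were above 2, beside 7.64%. All 8 ratios were under 1, beside 48.0% of all genes, with a median log2 ratio of -0.73 against 0.02 for all genes. The interval, which narrows with the number of reads, was below 1 for 7 of them, beside 7.20%. These shares too are given as a description of genes chosen with earlier results known.

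**Figure D2:**
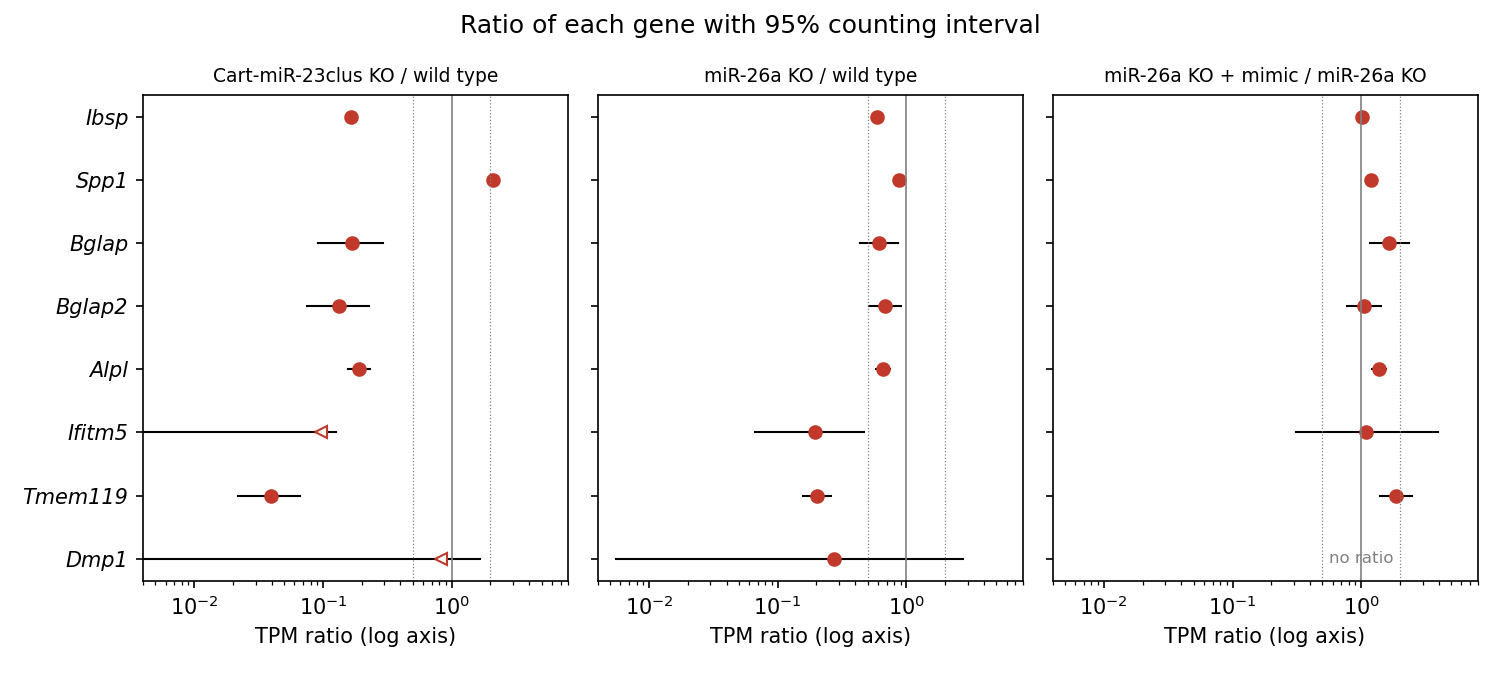
TPM ratio of each gene (horizontal, log axis) with its 95% counting interval in 3 comparisons of libraries, with dotted lines at 0.5 and 2 and open triangles for ratios with a library at 0 held at 3 reads. In Cart-miR-23clus KO 6 genes lie left of 0.5 and Spp1 lies at 2.09, and for the mimic all 7 ratios lie between 1.02 and 1.86.

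Both comparisons share the wild-type library, so a high value in that library lowers both ratios. Cart-miR-23clus KO was therefore also set against miR-26a KO, in which wild type takes no part. There 5 of the 7 genes with a ratio were below 0.5, beside 6.58% of 12319 genes, and 1 was above 2, beside 8.65%. Ibsp was at 0.284 (0.269 to 0.300), Bglap with Bglap2 at 0.229 (0.149 to 0.340), Alpl at 0.293 (0.237 to 0.359) and Tmem119 at 0.195 (0.104 to 0.342). Ifitm5, with its 0 held at 3 reads, was at 0.501 (0 to 0.851), and Spp1 was at 2.39 (2.21 to 2.59). Cart-miR-23clus KO was thus lower than miR-26a KO for Ibsp, osteocalcin, Alpl, Ifitm5 and Tmem119, and higher for Spp1. These ratios use the same Cart-miR-23clus KO library as before, and the genes were chosen with earlier results known. They are a description and not an independent check.

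The mimic library was compared with miR-26a KO. These libraries also differed in strain label, and the labels do not say whether miR-26a KO received the control siRNA. The mimic, the transfection and the strain label thus cannot be told apart. Of 7 genes with a ratio, 0 were below 0.5, beside 5.47% of 12225 genes, and 0 were above 2, beside 4.86%. All 7 ratios were above 1, beside 49.1% of all genes, and ran from 1.02 (Ibsp) to 1.86 (Tmem119), with a median log2 ratio of 0.26 against -0.01 for all genes. The interval was above 1 for 4 of the 7, Spp1, Bglap, Alpl and Tmem119, beside 4.41% of all genes. Against wild type, the mimic library had 2 of 8 genes below 0.5, Ifitm5 and Tmem119, beside 6.49% of 12386 genes, and 0 above 2, beside 7.76%. Ibsp remained at 0.600 of wild type (0.581 to 0.619), while Alpl was at 0.896 (0.802 to 1.000). These ratios share libraries with those above and are not independent of them.

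**Figure D3:**
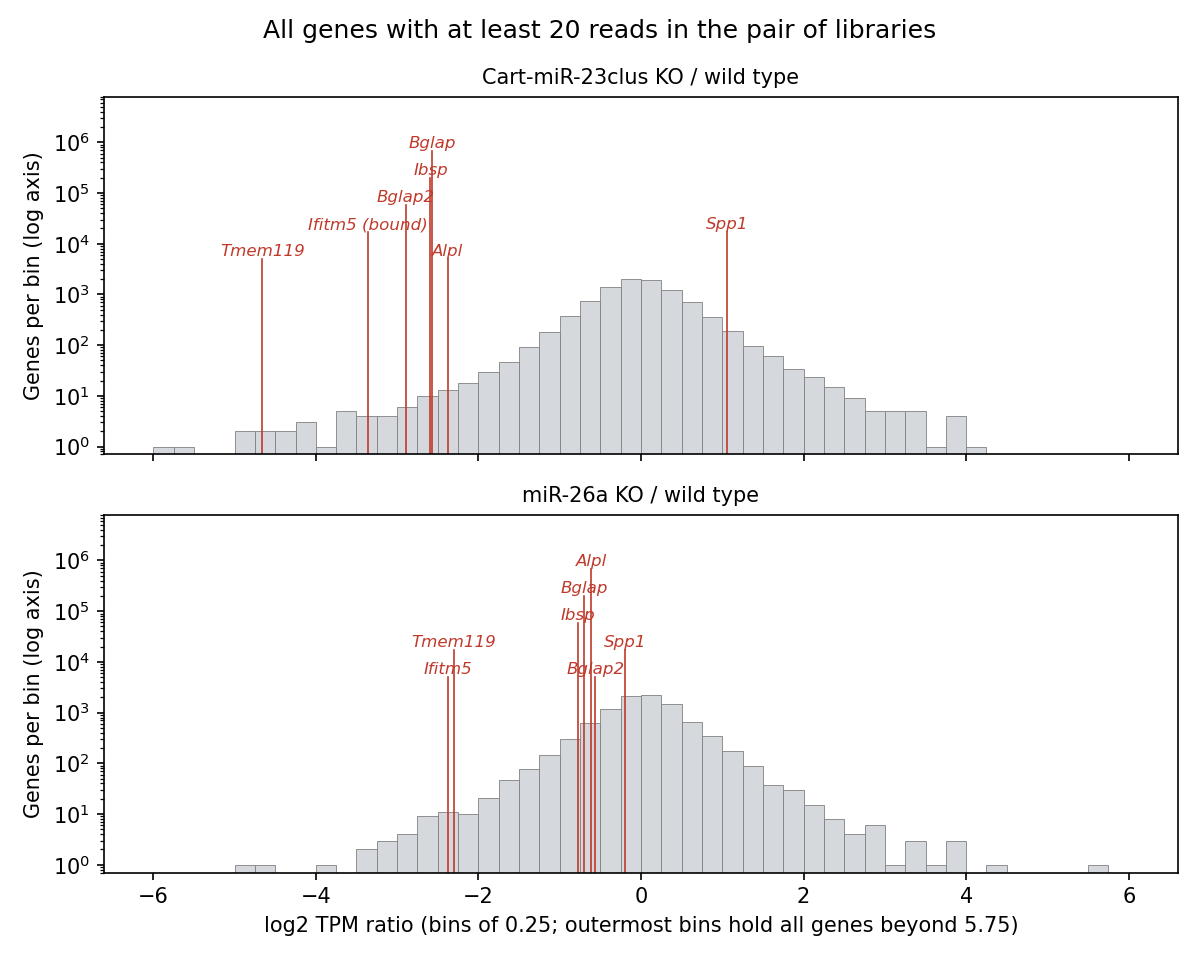
Number of genes (vertical, log axis) in bins of the log2 TPM ratio for Cart-miR-23clus KO to wild type and miR-26a KO to wild type, over 9573 and 9545 genes with at least 20 reads in the pair of libraries, with the bone genes as red lines whose height has no meaning. In the first Tmem119 lies at -4.66, Ibsp at -2.59 and Spp1 at 1.06, and in the second Ifitm5 lies at -2.37 and Ibsp at -0.77.

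As a share of each library, the 10 genes together took 13463, 3981, 7381 and 8519 reads, which is 0.894%, 0.298%, 0.539% and 0.588% of the reads on genes. Their make-up differed as well. Ibsp gave 81.2%, 41.5%, 79.1% and 75.0% of the group's reads, and Spp1 gave 8.47%, 54.3%, 12.3% and 13.7%. Spp1 thus outnumbered Ibsp in reads in Cart-miR-23clus KO and in no other library. The other 8 genes together had 1385, 168, 638 and 961 reads. In bulk cultures such as these, fewer cells of a type and less RNA per cell cannot be told apart.

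**Figure D4:**
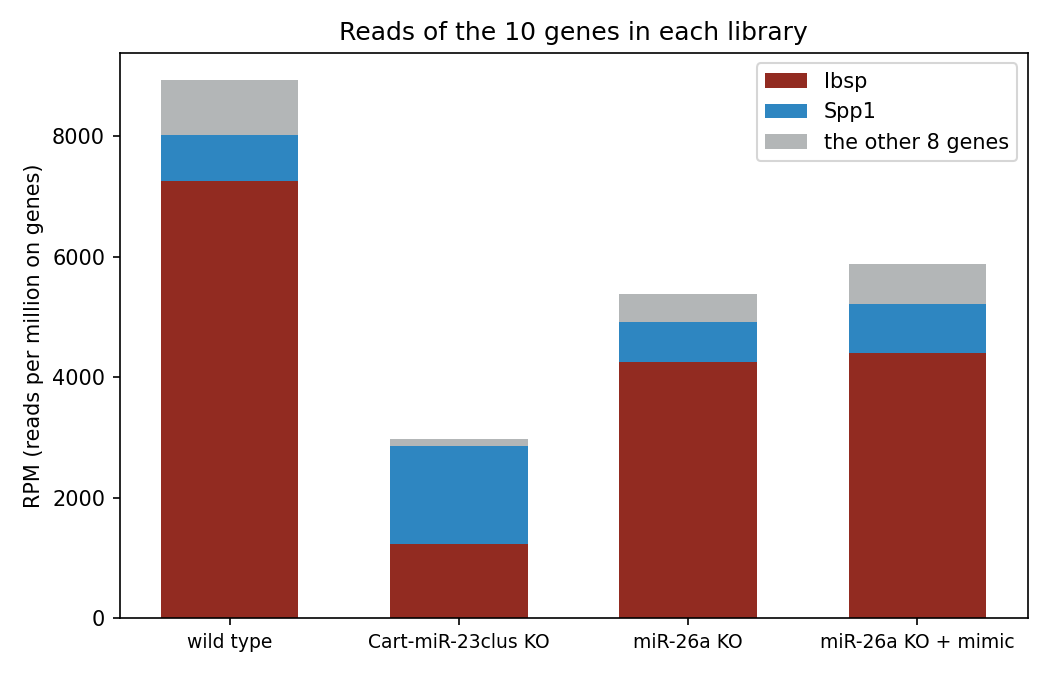
Reads of the 10 genes in RPM (vertical, reads scaled to the reads on genes) in each library, stacked as Ibsp, Spp1 and the other 8 genes. The bar of Cart-miR-23clus KO is the shortest, at 2979 RPM against 8941 in wild type, and most of it is Spp1.

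Among the factors that control osteoblast genes, Sp7 (osterix), which osteoblasts need to form, had 161, 49, 83 and 101 reads and a ratio of 0.335 (0.238 to 0.464) in Cart-miR-23clus KO. Runx2, the factor upstream of it, had 47, 33, 45 and 56 reads, and its ratio of 0.773 had an interval from 0.480 to 1.23. Creb3l1, which promotes type I collagen production, was at 0.329 (0.282 to 0.382) and Atf4 at 0.911 (0.840 to 0.988). Sp7 and Creb3l1 were thus lower in the library in which Ibsp, osteocalcin and Alpl were lower, and Runx2 did not differ beyond counting error. Of the homeobox genes, Dlx3 had 21 reads for wild type and 2 for Cart-miR-23clus KO, a ratio of 0.105 (0.0119 to 0.429), and Dlx5 had 12 in each, at 1.10 (0.452 to 2.68). Msx2 with 1 and 5 reads was at 5.51 (0.616 to 260.4), and Dlx6 had 1 and 0 reads. In all, 3 of the 7 factors with a ratio were below 0.5, beside 7.95% of all genes, and 1 was above 2, beside 8.83%, which was Msx2 on its few reads.

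Of 39 other bone and osteoblast genes, 31 had a ratio for Cart-miR-23clus KO: 8 were below 0.5 (beside 7.95% of all genes), 1 was above 2 (beside 8.83%) and 22 were between, with a median log2 ratio of -0.42. The lowest with at least 20 reads were Bmp3, an inhibitor of bone formation, Col1a1, the main chain of type I collagen, and Cd200. Bmp3 had 36, 0, 12 and 4 reads, and with its 0 held at 3 reads its ratio was 0.0918 (0 to 0.119). Col1a1 had 39203, 7378, 15172 and 19286 reads and a ratio of 0.207 (0.202 to 0.212). Col1a2, the other chain of type I collagen, was less low, at 0.417 (0.405 to 0.428). In miR-26a KO the ratios to wild type were 0.425 for Col1a1 and 0.860 for Col1a2. Cd200 was at 0.208 (0.0784 to 0.473) on 37 and 7 reads. Of these, Col1a1 and Cd200 both lay within the interval of Alpl. The highest were Postn at 2.64 (1.22 to 6.19), Pdpn at 1.82 (1.46 to 2.28) and Tnfrsf11b, the decoy receptor osteoprotegerin, at 1.57 (1.28 to 1.93). In miR-26a KO 5 of 32 of these genes were below 0.5, beside 7.28% of all genes, and 4 were above 2, beside 7.64%, with a median log2 ratio of -0.18.

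The genes most like the group were sought by the distance between their 3 log2 ratios to wild type and the median of the 6 members that had reads in all 4 libraries. These medians were 0.167 for Cart-miR-23clus KO, 0.635 for miR-26a KO and 0.799 for the mimic library. Among 6816 other genes the nearest was Panx3, a channel protein of hypertrophic chondrocytes and osteoblasts, with 1079, 193, 566 and 771 reads, at a distance of 0.30 log2 units. It was followed by Frmd6 (0.46), Apln (0.47), Adamts2, a procollagen peptidase (0.55), and Pdgfc (0.60). Of the 6 members themselves Alpl was at 0.26, Bglap at 0.35, Bglap2 at 0.37 and Ibsp at 0.43, and Tmem119 (2.87) and Spp1 (3.69) were far from the median. The 3 ratios share the wild-type library, so the distance is a description over 4 libraries.

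Markers of other cell types were read in the same libraries, and their lists did not all go the same way. Of 7 hypertrophic chondrocyte markers, 5 were below 0.5 in Cart-miR-23clus KO, beside 7.95% of all genes, and 0 were above 2, beside 8.83%. Their summed level was 1790, 681, 1534 and 1823 TPM, most of it from Pth1r, Panx3 and Mmp13. Of these Pth1r, the receptor of parathyroid hormone-related protein, was at 0.271 (0.242 to 0.302) and Mmp13 at 0.650 (0.596 to 0.709). Col10a1, the collagen that defines hypertrophic chondrocytes, went the other way, with 105, 148, 82 and 121 reads and a ratio of 1.55 (1.20 to 2.01). The 16 chondrocyte markers summed to 18079, 12474, 13125 and 13095 TPM. In Cart-miR-23clus KO 2 of the 16 were below 0.5, beside 7.95% of all genes, and 2 were above 2, beside 8.83%. In the summed level Cart-miR-23clus KO was thus far below the other libraries for the hypertrophic markers but not for Col10a1 among them, and for the chondrocyte markers it was close to miR-26a KO and the mimic library. Panx3 and Mmp13 are in the hypertrophic list and Mmp13 is in the other bone genes too.

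Beside Spp1, which macrophages and osteoclasts also make, the 9 osteoclast markers summed to 133, 266, 189 and 271 TPM, most of it from Ctsk, cathepsin K. Ctsk had 191, 317, 241 and 382 reads, and Nfatc1 41, 59, 42 and 60. Calcr was at 0 in every library, and in wild type 5 of the 9 were at 0: Mmp9, Ocstamp, Dcstamp, Calcr and Oscar. Acp5, the tartrate-resistant acid phosphatase, had 4, 26, 7 and 9 reads, so that Cart-miR-23clus KO stood at 7.16 (2.48 to 28.2) of wild type, and Atp6v0d2, a proton pump subunit, had 1, 14, 6 and 7 reads, at 15.4 (2.35 to 652). Both were highest in Cart-miR-23clus KO, and Ctsk was highest in the mimic library. The 15 macrophage markers summed to 1165, 1406, 419.9 and 785 TPM, and in miR-26a KO 12 of the 14 with a ratio were below 0.5, beside 7.28% of all genes. Lyz2 had 712, 633, 222 and 396 reads, at 0.342 of wild type in miR-26a KO. Csf1r had 80, 144, 45 and 82 reads and was not below 0.5 there, at 0.618.

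The 8 adipocyte markers summed to 262, 961, 217 and 229 TPM, with 5 of 6 ratios above 2 in Cart-miR-23clus KO (beside 8.83% of all genes), among them Car3 at 4.96 (4.09 to 6.07) and Lpl at 2.02 (1.77 to 2.31). Adipoq, which defines fat cells, had 8, 9, 1 and 0 reads, and Cidec had 0 in each library. The 7 smooth muscle markers summed to 158, 342, 160.2 and 207 TPM, with 2 of 3 ratios above 2 in Cart-miR-23clus KO (beside 8.83% of all genes). Most of this was Acta2 with 321, 596, 292 and 405 reads, Tagln had 3, 37, 10 and 10, at 13.6 (4.30 to 68.8) of wild type in Cart-miR-23clus KO, Cnn1 had 6, 10, 2 and 6, and Myh11 and Rgs5 had 0 throughout. The 10 fibroblast markers summed to 2578, 1864, 3026 and 2868 TPM, led by Dcn with 3068, 2092, 3384 and 3220 reads and Col3a1 with 1578, 843, 1335 and 1471. Of their 8 ratios in Cart-miR-23clus KO, 4 were below 1 and 4 above 1, with a median of 0.948. The 8 endothelial markers summed to no more than 31.9 TPM, nearly all of it Egfl7, with Cdh5, Tek and Cldn5 at 0 throughout and Vwf at 1, 0, 3 and 0 reads. The part of these cell types in the values of the bone genes was not tested.

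**Figure D5:**
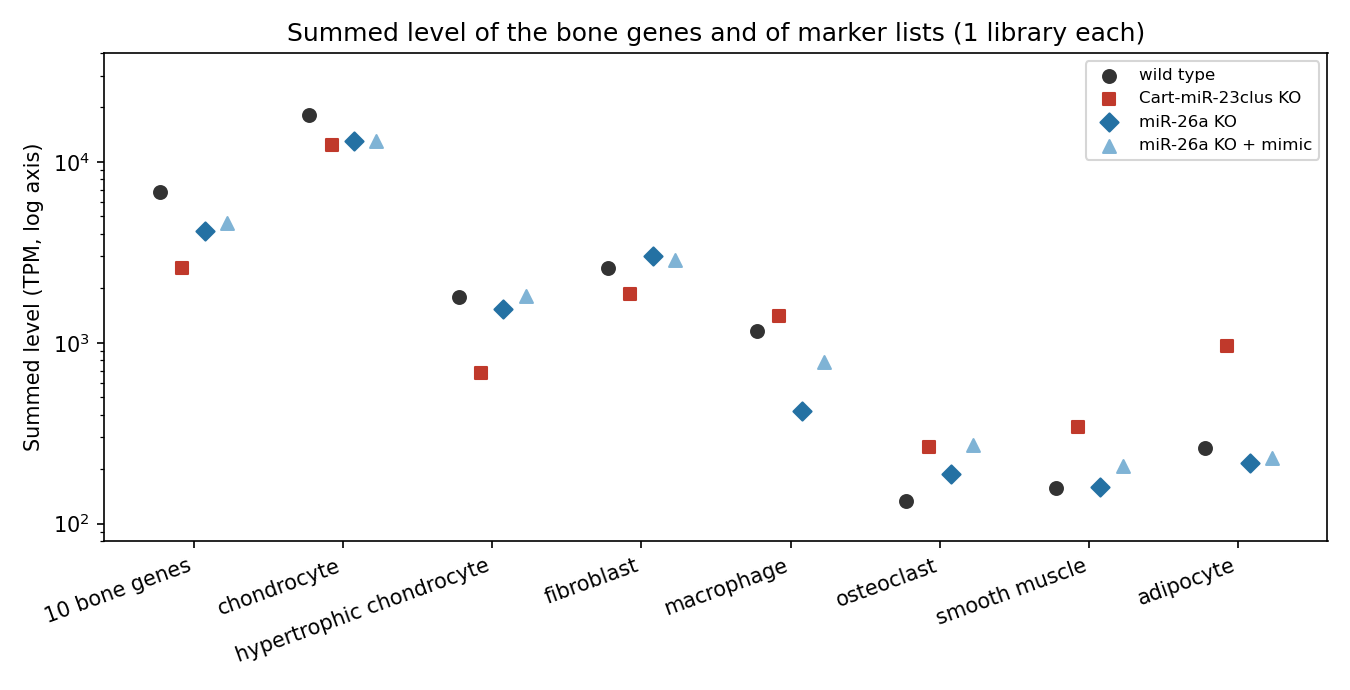
Summed TPM (vertical, log axis) of the 10 bone genes and of 7 lists of cell type markers, 1 point per library. Cart-miR-23clus KO is lowest for the bone genes (2585 TPM against 6803 in wild type) and for the hypertrophic markers (681 against 1790), and highest for the adipocyte markers (961 against 262).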

How the data were processed

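Sequencing of mRNA 3′ ends (QuantSeq) was analysed in 4 libraries, grouped by the labels. The authors mapped reads to mm10 (also GRCm38.p6 in the submitters' processing notes) without quality filtering; the aligner and counter are not given in the sources used here. The deposited estimated count is the number of reads per gene, whole and not normalized, for 3 libraries, with 76.5% to 83.2% of sequenced reads aligned and 13.0% to 15.4% aligned more than once. The deposited TPM values were made by the authors from reads divided by 1 length per gene, which cancels in the ratio of 1 gene. The reads of the mimic library were recovered from TPM and gene length: 14429 of 14429 values tested were whole within 0.001 reads.

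Ratios are TPM ratios with exact Clopper-Pearson intervals at 95% on reads. These cover counting error only, since reads without molecular identifiers are not independent molecules. A library at 0 was held at 3 reads, and genes with at most 3 reads in both libraries have no ratio. No test was made. The members and lists were chosen with earlier results of these data known. Genes named are the 10 members, the 8 bone factors (1 further factor is not reported here), the 3 lowest and 3 highest other bone genes with at least 20 reads, the 2 markers of each list with most reads in wild type, defining markers at 0, Adipoq, Col10a1, Acp5, Atp6v0d2 and Tagln (chosen after their values were seen) and the 5 genes nearest in profile among those with at least 100 reads. Col1a2 was also named after its values were seen. Promoters and microRNAs came from RefSeq (GRCm38.p6) by symbol, and gene positions and UTRs from GENCODE M21. Alternatives were library totals, edgeR's TMM, DESeq2's size factors, 0.1 or 1 TPM added, filters of 20 reads and the interval's side of 1. Those with Bglap and Bglap2 summed and with the mimic library against wild type were chosen after seeing the data. The steps were tested on simulated data. Scaling factors came from edgeR 4.0.16 and DESeq2 1.42.0 in R 4.3.3, intervals from scipy 1.17.1, and the rest from pandas 2.3.3, numpy 2.4.6 and matplotlib 3.10.9 in Python 3.11.15.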

Additional observations from a re-analysis of the deposited data

Results flagged for a closer look

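Spp1 went in opposite directions in the 2 knockout libraries against the same wild-type library, with a ratio of 2.09 (95% counting interval 1.94 to 2.24) in Cart-miR-23clus KO and 0.873 (0.799 to 0.953) in miR-26a KO. With 1 library per condition the difference between the ratios was not tested against replicate error. It was the only one of the 10 genes whose intervals lay on opposite sides of 1.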

How the results depend on the processing

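No paired analysis was possible because with 1 library a condition there is nothing to pair. All 150 recomputed ratios of single genes, under library totals, TMM, DESeq2's size factors and 0.1 or 1 TPM added, stayed within the 95% counting interval of the reported ratio. For genes at 0 in a library that interval starts at 0, and the ratio to wild type in Cart-miR-23clus KO moved from 0.0971 to 0.00235 (0.1 TPM added) and 0.0230 (1 TPM) for Ifitm5 and from 0.826 to 0.0673 and 0.419 for Dmp1, while Ifitm5 against miR-26a KO moved from 0.501 to 0.0120 and 0.108. With at least 20 reads required in each library, the members below 0.5 numbered 2 for Cart-miR-23clus KO against wild type, 1 for miR-26a KO against wild type and 2 for Cart-miR-23clus KO against miR-26a KO, since this filter removes genes that are low in 1 library. With 0.1 TPM added, 1 member was below 0.5 and 1 above 2 when the mimic library was set against miR-26a KO (Dmp1 and Phex, with 1 read in 1 of the libraries and 0 in the other). The summed level in Cart-miR-23clus KO was 0.380 of wild type, 0.134 without Ibsp and Spp1, and 0.333 when reads were summed over library totals, which also drops the division by gene length. Without these 2 genes it was 0.549 in place of 0.613 in miR-26a KO and 0.745 in place of 0.671 in the mimic library. All other recomputed counts of members below 0.5 or above 2 stayed within 1.5 times the reported ones. Counts of ratios or intervals on 1 side of 1 were not recomputed. Depth limits Dmp1, Mepe, Phex and Ifitm5.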
